A study of Schizosaccharomyces pombe with 4 samples.

Results

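The response of mmi1-ts3 fission yeast to 30 min at 36 °C was described from 2 of the 4 arrays of a series on Schizosaccharomyces pombe, across the 4771 tested of 4880 named genes. These 2 arrays are the ones whose titles name the mmi1-ts3 mutant, and the other 2 hold the wild type. The mutant strain, JV565, has the temperature-sensitive allele mmi1-ts3, and the wild-type strain is JV558; the labels name no other allele in either strain. Each array set polyA RNA of a strain kept 30 min at 36 °C, the restrictive temperature, against polyA RNA of the same strain growing in logarithmic phase at 25 °C, both in YES, a rich medium. Each response is therefore relative to the strain's own 25 °C culture, and the levels of the strains at 25 °C were never on the same array. In the mutant arrays alone, the effect of heat and that of the mutant allele cannot be told apart, and the wild-type arrays show the response to the same shift with mmi1 intact.

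Mmi1 is a YTH-family RNA-binding protein that recognises meiotic transcripts in vegetatively growing cells and directs them to the nuclear exosome for destruction. A shift to a higher temperature also sets off the heat shock response, driven by the transcription factor Hsf1, and the environmental stress response, driven by the kinase Sty1 and the transcription factor Atf1. In fission yeast, this stress programme is known for raised chaperone, antioxidant and trehalose genes and for lowered genes of ribosome production and translation.

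All values below are log2 ratios of 36 °C over 25 °C, centred on each array's median, so that a value of 0 is the response of the middle gene. A pair of values joined by "and" gives mmi1-ts3 array 1, whose title has no code, and then array 2, coded E140, and wild-type pairs are in the same order. The sign of the ratio was not given in the sources used here and was read from heat shock genes: hsp16, hsp104, hsp78, hsp90 and ssa1 were positive on all 4 arrays. The direction of these genes is thus a reading and not a result. A gene was called where the mean of the 2 mmi1-ts3 arrays differed from 0 in limma's moderated test at a Benjamini-Hochberg adjusted p under 0.05 over all 4771 genes. "Rose", "fell", "higher" and "lower" below mean called in this sense. The labels do not say whether separate cultures lie behind the arrays of a strain. The p-values measure only the spread between these arrays, which may be technical.

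More genes fell than rose after the shift, but the rises reached further. In mmi1-ts3, 711 genes (14.9%) rose and 933 (19.6%) fell, while 3127 (65.5%) were not called. At 2-fold or more, 427 rose (8.95%) and 563 fell (11.8%). By size, 118 genes rose and 110 fell at least 4-fold, 46 rose and 15 fell at least 8-fold, and 22 rose and 0 fell at least 16-fold. The 8 genes that rose at least 32-fold were the heat shock genes hsp16 and hsp9, the catalase gene ctt1, and ddr48, lsd90, rds1, rtc3 and SPOM_SPAC637.03. Every called gene had the same sign on both mmi1-ts3 arrays. The median SD between the 2 arrays was 0.20, and 3856 of all tested genes (80.8%) had the same sign on both. The array values of each gene are in the plot of one mmi1-ts3 array against the other. With 1 mmi1-ts3 array left out, the response rests on a single array and fewer genes passed: 367 rose (7.69%) and 535 fell (11.2%) without array 1, and 462 rose (9.68%) and 514 fell (10.8%) without array 2. The shares of all genes with both arrays or with 1 left out are the background for the counts of each gene group below. Of the 711 higher genes, 340 (47.8%) remained called without array 1 and 409 (57.5%) without array 2; of the 933 lower genes, 495 (53.1%) and 494 (52.9%) remained.

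**Figure D1:**
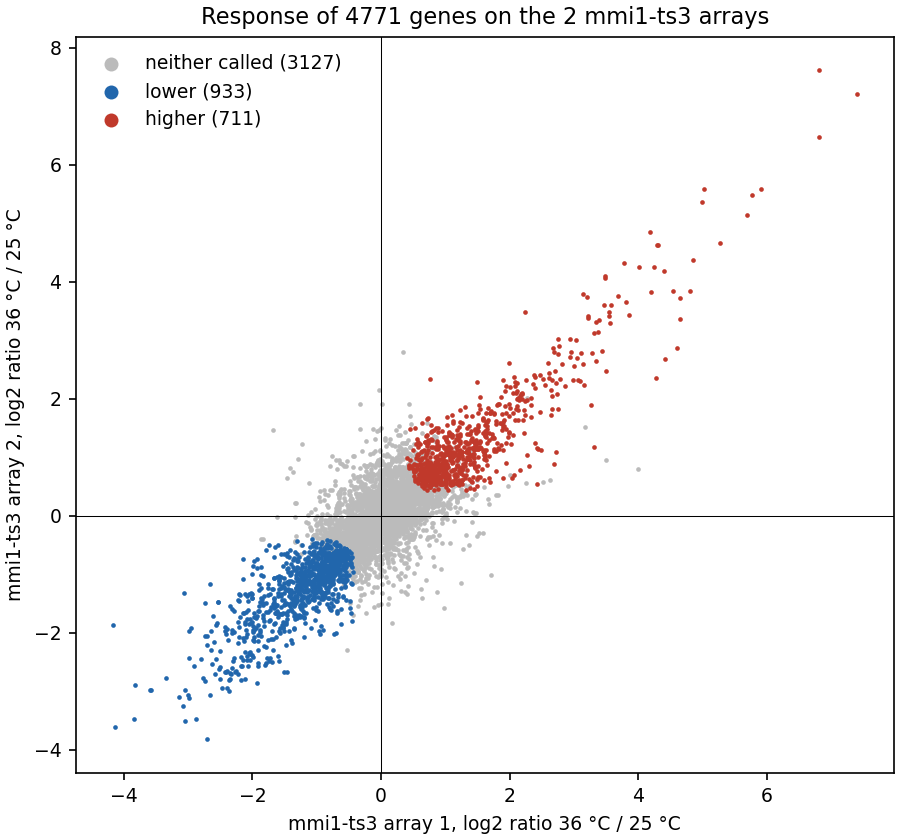
Response of each of the 4771 tested genes on mmi1-ts3 array 1 (x axis) and array 2 (y axis), both as the log2 ratio of 36 °C over 25 °C centred on the array's median. Red points are the 711 genes that rose, blue points the 933 that fell and grey points the 3127 not called; the highest value is 7.61 (hsp16, array 2) and the lowest −4.17 (str3, array 1).

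Most of the genes that rose in the mutant also rose in the wild type. In the wild type 643 genes (13.5%) rose and 693 (14.5%) fell by the same rule. Of the 711 genes that rose in mmi1-ts3, 511 (71.9%) rose in the wild type, which is 79.5% of the wild-type rises. Of the 933 that fell, 635 (68.1%) fell in the wild type, which is 91.6% of the wild-type falls. A further 199 rises and 298 falls were not called in the wild type, but 162 of these rises and 289 of these falls had the same sign on both wild-type arrays. The difference between the strains was tested as a contrast in the same limma fit, and 0 genes (0.0%) passed; the smallest adjusted p was 0.254, and at an unadjusted p under 0.05 there were 49 genes with a higher and 41 with a lower response in mmi1-ts3. Without mmi1-ts3 array 2, 2 genes passed, crs1 (3.10, adjusted p = 0.0321) and mug9 (2.99, adjusted p = 0.0374), with the lone mutant array assumed to vary like the wild-type arrays. In order alone, both mmi1-ts3 arrays lay above both wild-type arrays for 444 genes (9.31%) and below both for 972 (20.4%); such genes are called separated below. The median difference over all genes was −0.07.

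**Figure D2:**
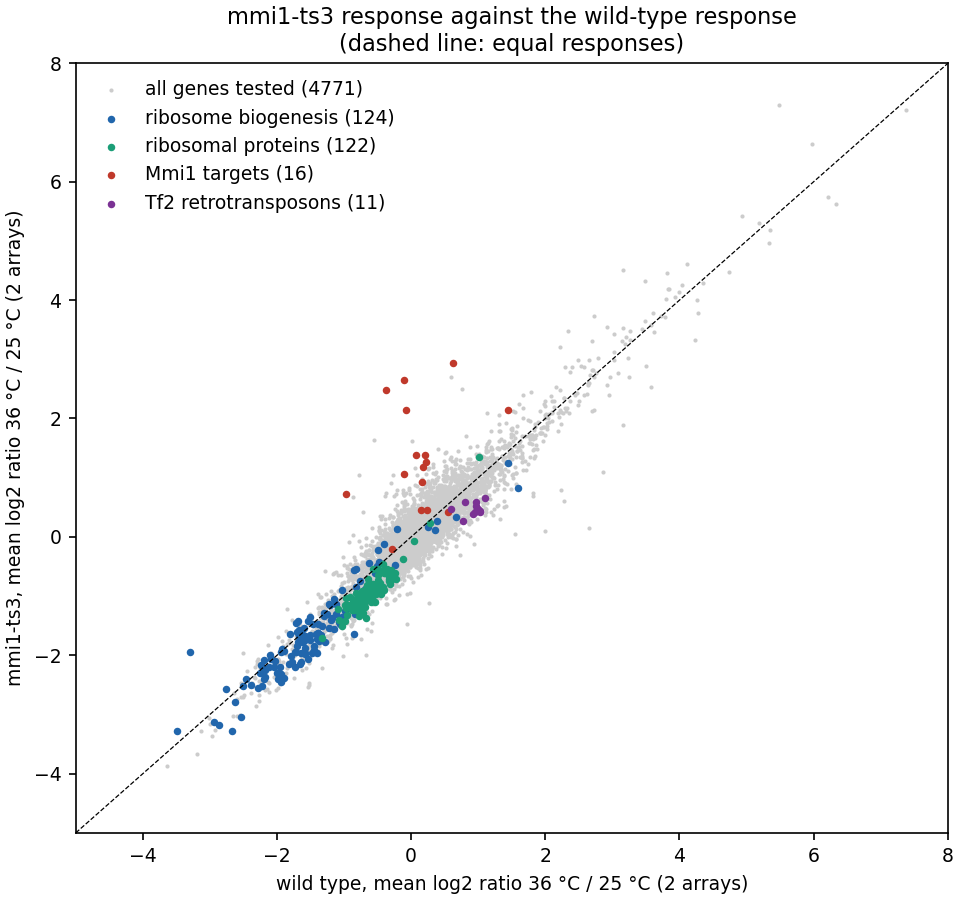
Mean log2 ratio of 36 °C over 25 °C in the wild type (x axis) and in mmi1-ts3 (y axis), each over 2 arrays, for 4771 genes in grey, with 124 ribosome biogenesis genes in blue, 122 ribosomal protein genes in green, 16 Mmi1 targets in red and 11 Tf2 retrotransposon genes in purple. Most genes lie near the dashed line of equal responses, most Mmi1 targets lie above it, and the ribosomal protein and Tf2 genes lie mostly below it.

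Chaperone genes were among the highest rises. All 6 genes of the small heat shock proteins, disaggregases and Hsf1 rose, with a median response of 4.43 against 0.005 over all genes tested. The small heat shock protein gene hsp16 stood at 6.81 and 7.61, a mean of 7.21 ± 0.57 (SD, n = 2) or 148-fold (limma adjusted p = 0.000568). In the wild type it stood at 7.03 and 7.74, so the strains overlapped. The heat shock gene hsp9 stood at 5.77 and 5.48, below both wild-type values of 5.89 and 6.77. The disaggregase genes hsp78, which acts in mitochondria, and hsp104 stood at 4.86 and 4.37 and at 4.24 and 4.26; hsp20, another small heat shock protein gene, stood at 2.12 and 2.27. By contrast, hsf1, which encodes the heat shock transcription factor itself, stood at only 0.57 and 0.61, and its call was lost without array 1 or 2 (adjusted p = 0.242 and 0.279).

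Among 17 Hsp70 genes and partners, 7 rose and 4 fell (4 rises and 3 falls with either mmi1-ts3 array left out), and among 8 genes of Hsp90 and its co-chaperones 6 rose and 0 fell. Of the 17 Hsp70 genes and partners 41.2% rose, against 14.9% of all genes, with a list median of 0.29. Their share of falls, 23.5%, was near the 19.6% of all genes. In the wild type 6 of the 17 rose and 3 fell. The J-domain gene psi1 stood at 4.54 and 3.85 and the nucleotide exchange factor gene fes1 at 2.95 and 3.02. The gene ssa1, which encodes a cytosolic Hsp70, stood at 2.14 and 1.98. The falls included the Hsp70 machinery of the ribosome: sks2, which encodes the ribosome-associated Hsp70, stood at −1.88 and −1.99 against wild-type values of −1.38 and −1.41, and zuo1, its J-domain partner, at −1.48 and −1.81. The mitochondrial exchange factor gene mge1 fell too (−1.91 and −1.86, wild type −1.29 and −1.09). Both mmi1-ts3 arrays lay below both wild-type arrays for sks2 and mge1, and the strains overlapped for zuo1. Among the Hsp90 co-chaperones, the cyclophilin gene wis2 stood at 2.79 and 2.34, the adaptor gene sti1 at 2.66 and 2.04, the p23 gene wos2 at 2.27 and 1.97 and the ATPase activator gene aha1 at 2.10 and 2.10; hsp90 itself stood at 1.54 and 1.18. The remaining rise, git7, was called with both arrays only (0.78 and 0.53; adjusted p = 0.323 without array 1 and 0.138 without array 2).

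The chaperonins showed smaller values, and those of the mitochondria and of the cytosol moved in opposite directions. The mitochondrial pair hsp10 and mcp60 rose (0.98 and 0.88 for hsp10, 0.90 and 0.65 for mcp60). Of the 8 CCT subunits of the cytosolic chaperonin, 5 fell and 0 rose, with a median of −0.63; the lowest was cct8 (−0.58 and −0.89). None of these chaperonin calls held with 1 mmi1-ts3 array left out, where their adjusted p ran from 0.0655 (hsp10) to 0.300 (cct4). In the plot of the chaperone genes, the CCT subunits lie left of 0 on both mmi1-ts3 arrays.

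**Figure D3:**
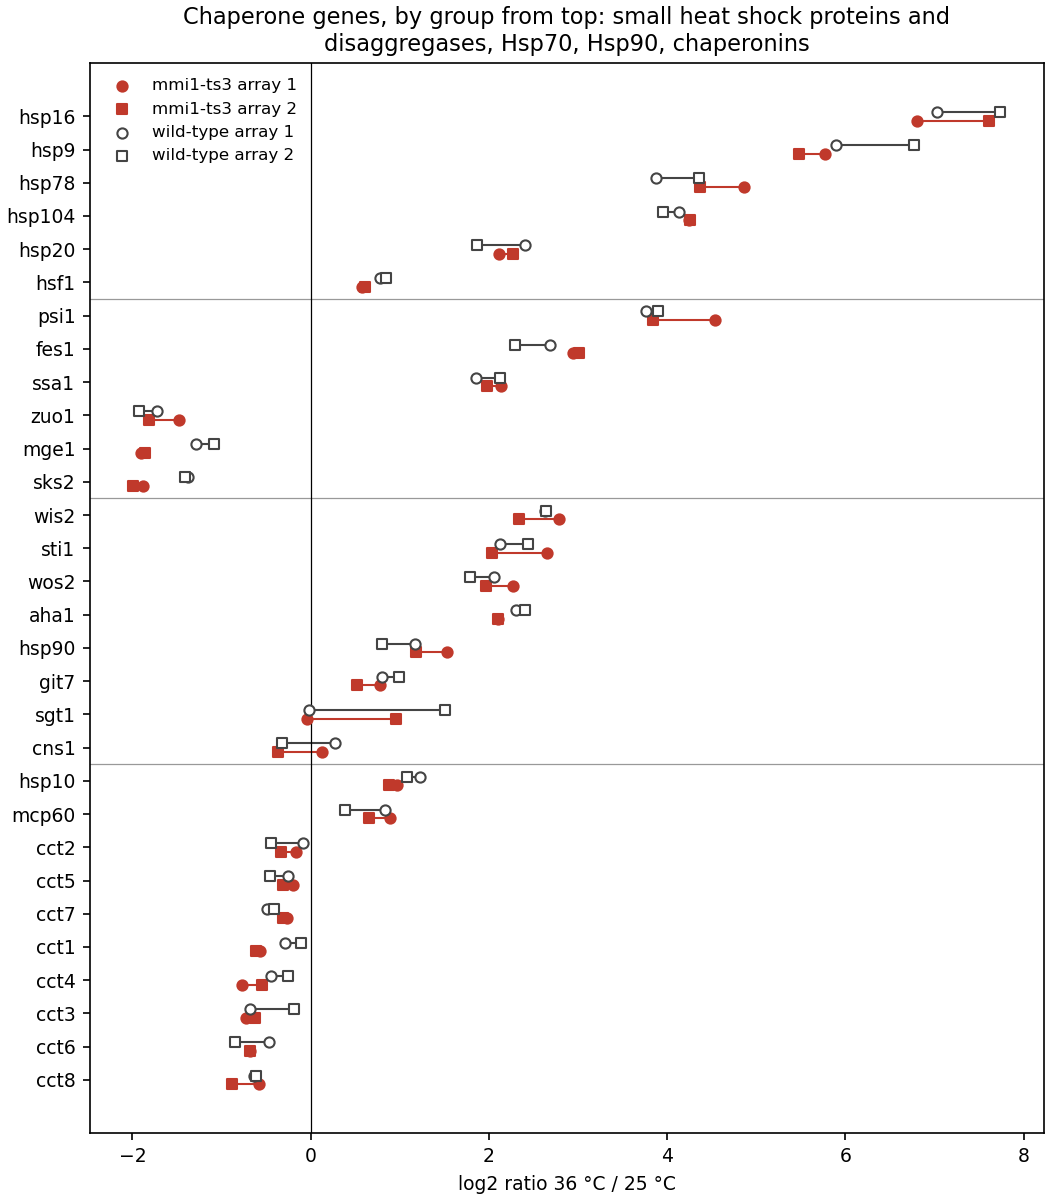
Log2 ratio of 36 °C over 25 °C (x axis) of chaperone genes (y axis) on each array, grouped from the top as small heat shock proteins and disaggregases, Hsp70, Hsp90 and chaperonins; filled red symbols are mmi1-ts3, open grey symbols wild type, circles array 1 and squares array 2. The mmi1-ts3 values run from 7.61 for hsp16 to −1.99 for sks2.

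Parts of the antioxidant and trehalose lists rose as well. Of 27 antioxidant and glutathione genes, 11 rose (40.7%, against 14.9% of all genes) and 3 fell (median 0.48). With 1 mmi1-ts3 array left out 10 rose in either case, while 0 fell without array 1 and 1 without array 2. The catalase gene ctt1 stood at 5.70 and 5.14, 42.8-fold in the mean, and the glutathione peroxidase gene gpx1 at 4.40 and 4.19. The metallothionein gene zym1 differed more between the arrays (4.28 and 2.36), while grx1, a glutaredoxin gene, stood at 2.60 and 2.62. Of 11 trehalose and glycerol genes 7 rose and 1 fell (median 1.56). Both the synthase gene tps1 (3.55 and 3.48) and ntp1, which encodes the trehalase that degrades the sugar (3.15 and 3.79), rose by more than 8-fold. The paralogues of glycerol-3-phosphate dehydrogenase moved apart: gpd1 stood at 3.38 and 3.14, and gpd2 at −0.81 and −0.71, a fall that was lost without array 1 or 2 (adjusted p = 0.174 and 0.121). Of the other rises, gld1 (2.69 and 0.88) was lost without array 1 (adjusted p = 0.132) and dak1 (1.06 and 1.38) without array 2 (adjusted p = 0.0612).

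With both mmi1-ts3 arrays, genes of the signalling pathways were called about as often as all genes or less often. Single members are described here as such. With either array left out, the share of rises among the protein kinase A and C genes lay above that of all genes. Of 27 genes of the Sty1 pathway 5 rose (18.5%, against 14.9% of all genes) and 4 fell (14.8%, against 19.6%), with a median of 0.01; 3 rises and 1 fall were called without array 1 and 3 rises and 3 falls without array 2. The transcription factor gene atf1 stood at 1.42 and 1.28 and the phosphatase gene ptc1 at 1.82 and 1.16. The kinase gene srk1 (1.43 and 1.05) was not called without array 1 (adjusted p = 0.0551). Among the falls were win1, which encodes a kinase upstream of Sty1 (−0.77 and −1.11; adjusted p = 0.148 without array 2), and ptc2 (−1.60 and −0.51; adjusted p = 0.362 without array 1). Of 21 genes of the protein kinase A and C pathways, 3 rose (14.3%), among them atf1 again, and 1 fell (4.76%), rho1 (−0.81 and −0.70), which was not called without array 1 or 2 (adjusted p = 0.184 and 0.120). Both the catalytic and the regulatory subunit gene of protein kinase A rose, pka1 at 2.48 and 2.40 and cgs1 at 2.05 and 1.37. For pka1 both mmi1-ts3 arrays lay above both wild-type arrays (mean 1.79), while the strains overlapped for cgs1 (1.82 and 1.72).

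Protein breakdown genes rose in part. Of 38 proteasome genes 12 rose (31.6%, against 14.9% of all genes) and 1 fell (median 0.50), but 2 rises were called without array 1 (5.26%, against 7.69%) and 3 without array 2 (7.89%, against 9.68%). The base ATPase gene rpt5 kept its call in both cases, at 1.26 and 1.09. Of 29 genes of ubiquitin and protein turnover 10 rose and 3 fell; with 1 mmi1-ts3 array left out 5 and 6 rose and 1 fell. The highest were ubc8, a ubiquitin-conjugating enzyme gene (1.90 and 1.60), cdc48, which encodes an unfolding ATPase (1.74 and 1.34), and san1, a ubiquitin ligase gene (1.51 and 1.51). The lowest was ubp16, a deubiquitinating enzyme gene, at −1.75 and −1.23. With both arrays 34.5% of these 29 genes rose and 10.3% fell, against 14.9% and 19.6% of all genes. In the wild type 14 of the 38 proteasome genes rose and 1 fell, and 13 of the 29 turnover genes rose and 2 fell.

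Most genes of ribosome production fell. Of 124 ribosome biogenesis genes 108 fell, 103 of them at least 2-fold, and 1 rose; the median was −1.68 in mmi1-ts3 and −1.72 and −1.67 on its separate arrays, against −1.58 in the wild type. With 1 mmi1-ts3 array left out 97 and 102 fell. The rise was has1, an RNA helicase gene named here after its values were seen (1.06 and 1.44, wild type 1.28 and 1.60). The RNA helicase gene dbp3 stood at −3.59 and −2.98, the rRNA methyltransferase gene nop2 at −3.04 and −3.50, the GTPase gene grn1 at −2.88 and −3.48 and the kinase gene rio2 at −2.98 and −3.12. Also among the lowest were nip7 (−3.14 and −3.10) and rlp24 (−2.74 and −2.83). For nop2 and rio2 both mmi1-ts3 arrays lay below both wild-type arrays (−2.75 and −2.59 for nop2, −2.64 and −2.43 for rio2), whereas dbp3, grn1, nip7 and rlp24 overlapped between the strains. The helicase gene dbp2 stood at −1.96 and −1.91 in mmi1-ts3 and at −3.18 and −3.42 in the wild type, a difference of 1.37 ± 0.24 (SE) that did not pass over all genes (limma adjusted p = 0.853).

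Ribosomal protein genes fell too, with a median nearer to 0. Of 122 tested, 74 of the large and 48 of the small subunit, 112 fell and 1 rose, with a median of −0.96 and with 90 of the 122 separated below the wild type, against 20.4% of all genes. The large and the small subunit had medians of −0.99 and −0.94, and the wild-type medians were −0.67 and −0.59. With 1 mmi1-ts3 array left out far fewer were called, 48 without array 1 and 31 without array 2, while the median was −1.01 and −0.91. Among the lowest were rps2802 (−1.53 and −1.87), rpl102 (−1.40 and −1.60) and rpp0, which encodes a stalk protein of the large subunit (−1.56 and −1.24). The single rise was rpl501 (1.47 and 1.22), which also rose in the wild type (1.25 and 0.76). Fission yeast carries many ribosomal protein genes in several near-identical copies, and spots may not tell such copies apart. In 44 families with more than 1 tested copy, the median spread between the copies was 0.16, and 40 families had a spread under 0.5. The widest spread, 2.58, lay between rpl501 and its copy rpl502, which stood at a mean of −1.24 in mmi1-ts3.

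Many genes of the translation and transcription machinery fell. Of 43 translation factor genes 30 fell and 0 rose (median −0.90); 19 and 17 fell with 1 mmi1-ts3 array left out. The initiation helicase gene sum3 stood at −2.29 and −2.49, tif11, which encodes eIF1A, at −1.75 and −2.12, the eIF4G gene tif471 at −1.73 and −1.60 and the release factor gene erf1 at −1.48 and −1.66. Of 33 genes of RNA polymerases I and III, 16 fell and 1 rose, and 0 rose with 1 mmi1-ts3 array left out. The 12 genes of RNA polymerase I, which transcribes rRNA, held 9 of the falls, with a median of −1.51. Its largest-subunit gene nuc1 stood at −1.98 and −1.73, rpa49 at −1.91 and −2.57 and rpa43 at −1.71 and −2.11, and rpc19, a subunit shared with polymerase III, at −1.91 and −2.13. Of 14 RNA polymerase II genes 7 fell and 1 rose, and 4 and 3 fell with 1 mmi1-ts3 array left out. The lowest of these, rpb8 (−1.99 and −2.42) and rpb5 (−1.30 and −1.75), encode subunits that all the nuclear polymerases share.

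**Figure D4:**
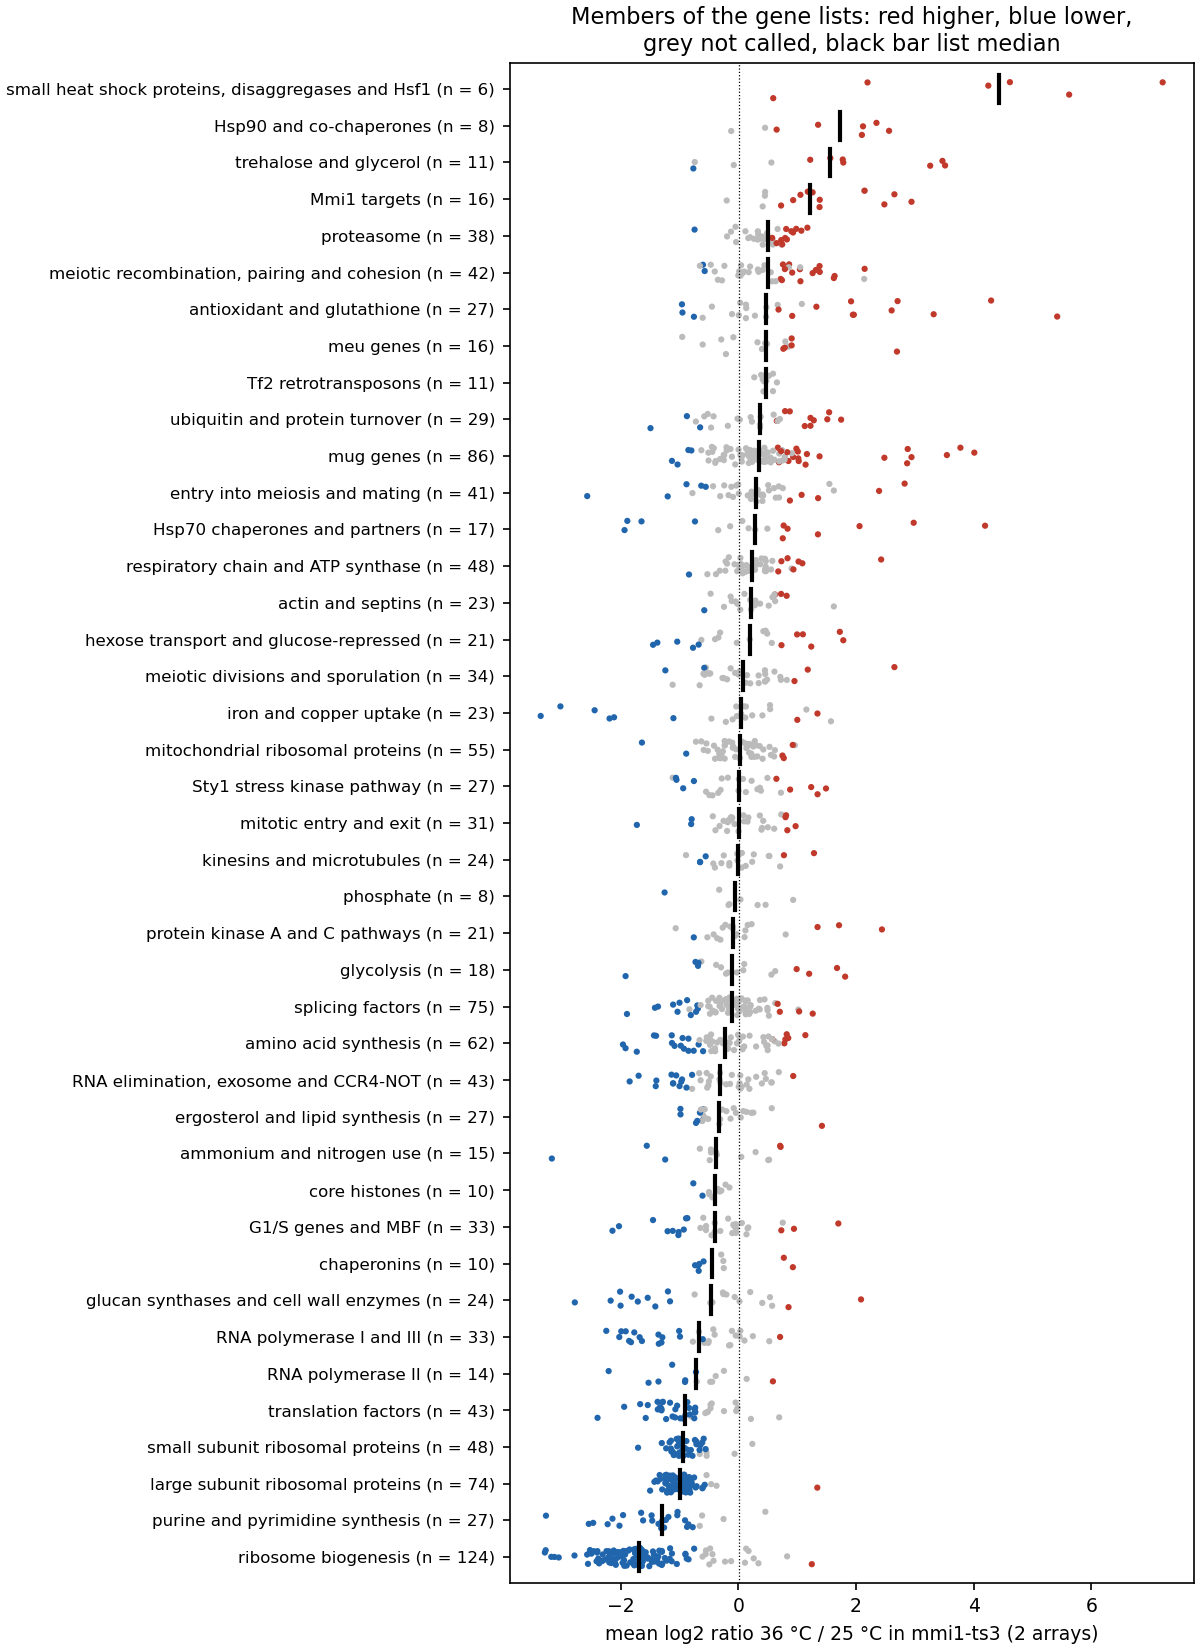
Mean log2 ratio of 36 °C over 25 °C in mmi1-ts3 over 2 arrays (x axis) for each tested member of 41 gene lists (y axis), ordered by the list median, which is drawn as a black bar; red points rose, blue points fell and grey points were not called. The dotted line is the median of all 4771 genes, and by median ribosome biogenesis genes lie furthest to its left and small heat shock proteins furthest to its right.

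Most genes of nucleotide synthesis fell. Of 27 genes of purine and pyrimidine synthesis 23 fell and 0 rose, with a median of −1.30 against −0.97 in the wild type. The adenine salvage gene apt1 stood at −2.71 and −3.82, and cdc22, which encodes the large subunit of ribonucleotide reductase, at −2.29 and −1.99. The purine gene ade5 stood at −2.42 and −2.66, below both wild-type values of −1.47 and −1.61. Of 15 genes of ammonium and nitrogen use 2 rose and 3 fell, which is near the shares over all genes (14.9% and 19.6%). The 3 that fell encode enzymes of ammonium assimilation: gln1, glutamine synthetase, stood at −3.08 and −3.26, glt1, glutamate synthase, at −1.25 and −1.24, and gdh1, glutamate dehydrogenase, at −1.34 and −1.77. For gdh1 both wild-type values were higher (−0.61 and −0.70). The 2 rises, gdh2 (0.72 and 0.72) and isp5 (0.81 and 0.61), were lost with either array left out (adjusted p = 0.171 and 0.172 for gdh2, 0.247 and 0.123 for isp5). Of 62 amino acid synthesis genes 6 rose and 16 fell, and with 1 mmi1-ts3 array left out 1 and 2 rose and 8 fell. With both arrays the falls were 25.8% of the 62, against 19.6% of all genes, and the rises 9.68%, against 14.9%. The lowest of the amino acid genes were met9, a gene of methionine synthesis (−2.32 and −1.60), and sam1, S-adenosylmethionine synthetase (−2.01 and −1.82). Of 27 genes of ergosterol and lipid synthesis 7 fell and 1 rose, but 0 and 1 fell with 1 array left out; the rise was erg1, squalene epoxidase (1.26 and 1.59). With both arrays 25.9% of these ergosterol and lipid genes fell, against 19.6% of all genes, and 3.70% rose, against 14.9%. Of 8 phosphate genes 0 rose and 1 fell (12.5%, against 19.6% of all genes). This was the acid phosphatase gene pho4, at −1.23 and −1.27, which also fell in the wild type (−1.06 and −0.85).

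Genes of carbon metabolism were called in both directions, as were 14.9% (higher) and 19.6% (lower) of all genes. Of 21 genes of hexose transport and glucose repression 6 rose (28.6%) and 5 fell (23.8%) (median 0.20), and 2 and 4 rose and 2 and 3 fell with 1 mmi1-ts3 array left out. The hexose transporter genes moved apart: ght2 stood at 1.89 and 1.57, while ght5 stood at −1.55 and −1.35 and ght8 at −1.59 and −1.17. The invertase gene inv1 stood at 1.15 and 1.04 in mmi1-ts3 and at 2.84 and 2.88 in the wild type; the difference of −1.76 ± 0.23 (SE) did not pass over all genes (limma adjusted p = 0.441), and the mutant rise was lost without array 1 (adjusted p = 0.0520). The galactokinase gene gal1 stood at 0.92 and 0.55 against 1.59 and 2.03 in the wild type, and was not called without array 1 or 2 (adjusted p = 0.316 and 0.0877). Of 18 glycolysis genes 4 rose and 4 fell (22.2% each), and 2 rises and 0 or 1 falls were called with 1 mmi1-ts3 array left out. The phosphoglycerate kinase gene pgk1 kept its rise at 1.80 and 1.56. Of 48 genes of the respiratory chain, ATP synthase and citrate cycle 7 rose (14.6%, near the share over all genes) and 1 fell (2.08%), with 2 and 3 rises with 1 array left out; the malate dehydrogenase gene mdh1 was highest at 2.52 and 2.33. Of 55 mitochondrial ribosomal protein genes 3 rose (5.45%) and 2 fell (3.64%; median 0.02), and 1 and 0 rose and 1 fell with 1 array left out.

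The cell wall list held deep falls among genes of enzymes that cut or remodel glucan. Of 24 glucan synthase and cell wall enzyme genes 10 fell (41.7%, against 19.6% of all genes) and 2 rose (8.33%, against 14.9%). In the wild type 10 of them fell and 3 rose, and the list median was −0.49, against −0.46 in mmi1-ts3. In order alone, 11 of the 24 were separated below the wild type, against 20.4% of all genes. The gene adg1, which is not on that list, stood at −3.85 and −3.48, a mean of −3.66 ± 0.26 (SD, n = 2) or 0.0791 of its 25 °C level, and eng1, which encodes the glucanase that splits the septum, at −2.78 and −2.78. Both lay below their wild-type values on both arrays (−3.39 and −2.99 for adg1, −2.40 and −2.13 for eng1). The glucanosyltransferase genes gas4 and gas5 stood at −2.53 and −1.48 and at −1.82 and −1.81, and the glucanase gene exg3 rose (1.95 and 2.22). The exoglucanase gene exg1 stood at −2.53 and −1.47 against −0.95 and −0.39 in the wild type, a difference of −1.33 ± 0.42 (SE; limma adjusted p = 0.998). Of 23 iron and copper uptake genes 6 fell (26.1%, against 19.6% of all genes) and 2 rose (8.70%, against 14.9%). In the wild type 6 of them fell and 1 rose. The siderophore transporter gene str1 (−3.82 and −2.89), the haem transporter gene str3 (−4.17 and −1.88) and the permease gene fip1 (−2.96 and −1.93) fell. The gene of its ferroxidase partner, fio1 (−3.06 and −1.32), and the reductase gene frp1 (−2.73 and −1.49) fell as well. Each of these genes was lower on array 1 than on array 2. All of them also fell in the wild type, each again lower on array 1, and the strains overlapped for each. The ferrichrome synthesis gene sib1 rose (1.59 and 1.10), but not without array 1 (adjusted p = 0.0580).

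In no list of cell cycle, cytoskeleton or splicing genes did a larger share rise than the 14.9% of all genes, and a share of falls above the 19.6% of all genes was found for the G1/S transition (30.3%) and, by a narrow margin, the core histones (2 of 10). Of 33 genes of the G1/S transition and the MBF transcription factor 3 rose and 10 fell, and 1 and 2 rose and 4 and 7 fell with 1 mmi1-ts3 array left out. Besides cdc22, tos4 (−1.82 and −2.24) and the MBF activator gene rep2 (−1.40 and −1.50) fell, whereas res2, which encodes an MBF subunit, rose (mean 1.70 ± 0.42 (SD, n = 2)), with both wild-type values lower. Of 31 genes of mitotic entry and exit 4 rose and 3 fell, and 1 rose and 1 fell with either array left out; the lowest was slp1, an activator of the anaphase-promoting complex, at −2.12 and −1.33 against −1.04 and −0.44 in the wild type. Of 10 core histone genes, many with near-identical copies, 0 rose and 2 fell, and neither fall was called with 1 array left out. Of 24 kinesin and microtubule genes 2 rose and 3 fell (0 and 1 fell and 1 rose with 1 array left out); the kinesin gene klp9 was highest at 1.31 and 1.27. Of 23 actin and septin genes 3 rose and 1 fell; none of these 4 calls held without array 1, and 1 of them, the rise of the tropomyosin gene cdc8 (1.10 and 0.54), held without array 2. Of 75 splicing factor genes 4 rose and 11 fell (median −0.11), and 2 and 1 rose and 7 and 3 fell with 1 array left out; the helicase gene prp43, which also serves ribosome production, was lowest at −1.68 and −2.10.

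The mmi1 transcript itself was not called. It stood at 0.24 and 0.66 in mmi1-ts3 (limma adjusted p = 0.325) and at −0.24 and 1.01 in the wild type, and the labels do not give the lesion of the allele, so its level does not check the genotype. Of 43 genes of RNA elimination, the exosome and the CCR4-NOT complex, 1 rose, 29 were not called and 13 fell (30.2%, against 19.6% of all genes; median −0.32); without array 1 there were 11 falls (25.6%, against 11.2% of all genes) and without array 2 there were 4 (9.30%, against 10.8%). The exosome genes rrp42 (−1.42 and −1.96) and rrp46 (−1.39 and −1.40), the helicase gene mtr4 (−1.48 and −2.21) and cid14, a nuclear poly(A) polymerase gene (−1.32 and −1.48), fell, and all of them were negative on both wild-type arrays as well. Among the genes whose products act with Mmi1 in this pathway, pab2, a nuclear poly(A)-binding protein gene, stood at −0.90 and −1.31, and mtl1, a nuclear helicase gene, at −0.98 and −1.29, each below both wild-type values (−0.53 and −0.70 for pab2, −0.42 and −0.31 for mtl1). Both genes fell by the test on both arrays, and both calls were lost without array 2 (adjusted p = 0.0867 for pab2 and 0.0652 for mtl1).

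Most transcripts listed as Mmi1 targets rose in mmi1-ts3. Of 16 tested, 11 rose and 0 fell, where 14.9% of all genes rose, and 7 and 10 rose with 1 mmi1-ts3 array left out. In the wild type 1 of them rose, mug8, and 1 fell, mug45. The list median was 1.22 (1.30 and 0.90 on the separate arrays) against 0.15 in the wild type, and 10 of the 16 were separated above the wild type, against 9.31% of all genes. This list was drawn in part from the study of these samples, so its direction is not independent evidence. The gene mug8 stood at 3.11 and 2.78, 7.69-fold in the mean, and at 0.61 and 0.64 in the wild type. The meiotic cyclin gene crs1 stood at 2.99 and 2.32, 6.29-fold, and at −0.17 and −0.05 in the wild type. The values of mug9 were 2.62 and 2.35, 5.59-fold, against −0.09 and −0.65. All 4 arrays ordered by strain for these genes, with the mmi1-ts3 values above 2 and the wild-type values under 1.

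Among the other targets, rec8, which encodes the meiotic cohesin subunit, stood at 2.19 and 2.10 against −0.41 and 0.26, jnm1 at 1.37 and 1.40 against −0.22 and 0.38, and spo5, a meiotic RNA-binding protein gene, at 1.24 and 1.13 against 0.09 and 0.26. The linear element gene rec10 stood at 1.01 and 1.11 and was not called without array 2 (adjusted p = 0.0617). The next genes rested on array 1: num1, which anchors dynein at the cortex, stood at 2.06 and 0.70, ssm4, a gene of the dynactin complex, at 1.89 and 0.64, and mug10 at 1.18 and 0.68. For ssm4 the array 2 value lay below wild-type array 2 (0.72), so the strains overlapped. Without array 1 the adjusted p of num1, ssm4 and mug10 was 0.221, 0.295 and 0.206. The gene mug45 was the only one of all 4771 to rise in mmi1-ts3 (0.83 and 0.63) and fall in the wild type (−0.83 and −1.12), but the difference did not pass over all genes (limma adjusted p = 0.551), and its rise was lost without array 1 or 2 (adjusted p = 0.236 and 0.119). The uncalled members were mcp7, at 2.27 and 2.01 against −0.18 and 3.05 in the wild type, the meiotic transcription factor gene mei4 (0.74 and 0.18), the meiotic cyclin gene rem1 (0.23 and 0.68), mug5 (0.61 and 0.22) and mug4 (−0.40 and 0.00). For mcp7 the strains overlapped because wild-type array 2 was the highest of its 4 values, and the model's shared spread includes that gap. With the array number as a block, 11 targets were called again, of which 10 were the same: mcp7 passed (limma adjusted p = 0.0423) and ssm4 did not (adjusted p = 0.0584).

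**Figure D5:**
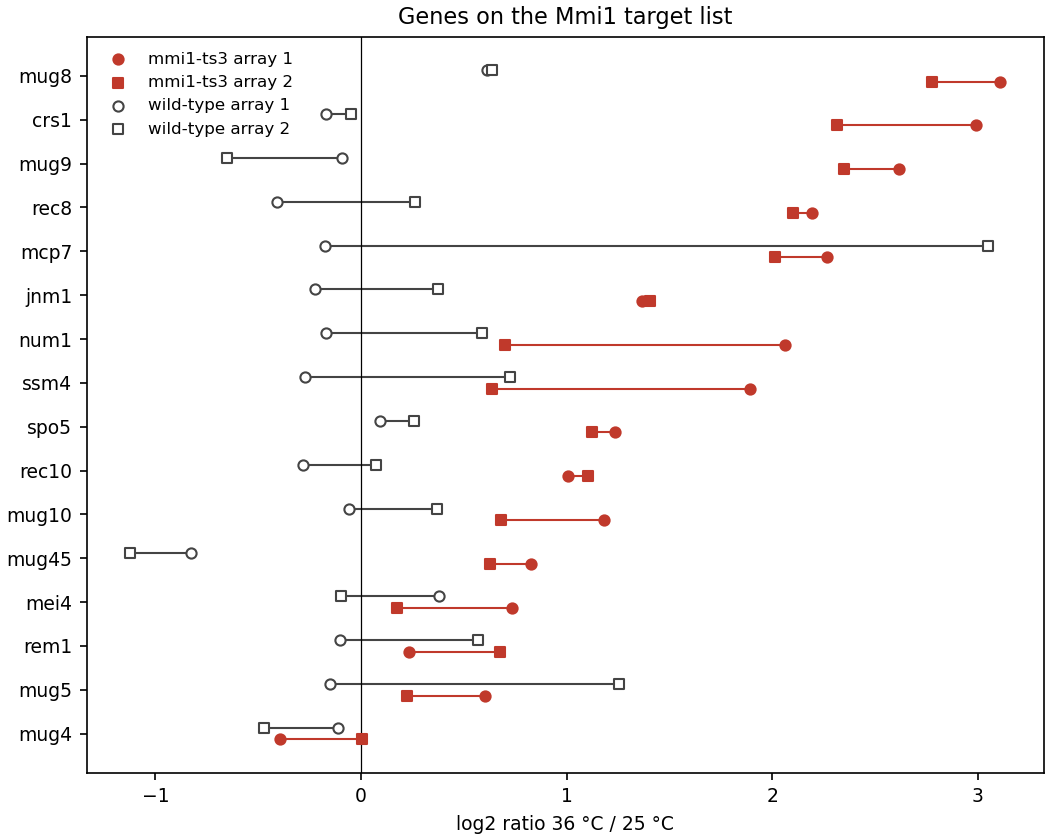
Log2 ratio of 36 °C over 25 °C (x axis) of the 16 tested Mmi1 targets (y axis) on each array; filled red symbols are mmi1-ts3, open grey symbols wild type, circles array 1 and squares array 2, with a line joining the arrays of a strain. For 10 genes both red symbols lie right of both grey ones; mcp7, ssm4 and the 4 genes at the bottom overlap between the strains.

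Some meiotic genes beyond the listed targets rose too. Of 42 genes of meiotic recombination, pairing and cohesion 15 rose and 2 fell, with a median of 0.50 against 0.03 in the wild type, and 19 were separated above it; 6 and 11 rose with 1 mmi1-ts3 array left out. Outside the Mmi1 targets, 10 of 35 rose (28.6%, against 14.9% of all genes) and 2 fell. Without array 1, 3 of the 35 rose (8.57%), near the 7.69% of all genes, and without array 2 there were 6 (17.1%, against 9.68%); 0 fell in either case. The nuclear fusion gene tht2 stood at 1.51 and 1.76 and was negative on both wild-type arrays, and bqt1, whose product gathers the telomeres for meiotic prophase, stood at 1.64 and 1.61 against −0.29 and 0.33. The kinetochore gene moa1 (1.60 and 1.04) was lost without array 1 (adjusted p = 0.0914). Of 86 mug genes, named for their rise in meiosis, 20 rose and 4 fell, and 14 and 13 rose with 1 array left out. Some of the 86 are Mmi1 targets. Outside the Mmi1 targets, 16 of 80 mug genes rose and 4 fell, where 14.9% of all genes rose. Without array 1, 12 of the 80 rose and without array 2, 10 rose, where 7.69% and 9.68% of all genes rose. In the wild type 12 of the 80 rose, where 13.5% of all genes rose. Some mug genes rose in both strains. The gene mug147 stood at 4.66 and 3.37 against 3.46 and 4.14 in the wild type. The values were 3.48 and 4.07 against 4.31 and 4.25 for mug35, and 2.96 and 2.80 against 3.66 and 3.36 for mug14. Of 16 meu genes, also named for meiotic expression, 5 rose (31.3%) and 0 fell, but 1 rose with either array left out (6.25%, against 7.69% and 9.68% of all genes). The highest, meu26, stood at 3.07 and 2.32 against −0.25 and 1.43.

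Genes of the later meiotic programme and of mating gave no share above those over all genes (14.9% higher and 19.6% lower) with both arrays, but for the rises of entry and mating genes this turned with 1 array left out. Of 34 genes of the meiotic divisions and sporulation 3 rose (8.82%) and 2 fell (5.88%), and crs1 and spo5 were among the 3. Of 41 genes of entry into meiosis and mating 5 rose and 3 fell in the wild type. In mmi1-ts3, 5 of the 41 rose and 5 fell (12.2% each). Without array 1, 6 rose (14.6%, against 7.69% of all genes), without array 2, 8 rose (19.5%, against 9.68%), and 2 fell in either case. The transcription factor gene ste11, which drives sexual differentiation, stood at 1.06 and 1.10 in mmi1-ts3 and at 0.88 and 1.05 in the wild type, and the vacuolar protease gene isp6 at 2.93 and 2.72 against 2.65 and 2.73. Members of that list with other known roles were mag2, a DNA glycosylase gene (2.64 and 2.15), and sla1, the gene of the La RNA-binding protein (−2.34 and −2.79). The 11 Tf2 retrotransposon genes, whose copies are near-identical and cannot be told apart with confidence on spots, were not called in mmi1-ts3, with a median of 0.46. In the wild type 10 of them rose, with a median of 0.97, and 9 were separated with the mutant below. All 11 were positive on both mmi1-ts3 arrays. In mmi1-ts3, 5 of the 11 were called with the array number as a block and 4 without centring, so the difference in calls between the strains depends on these settings; none of the 11 differences between the strains passed the test.

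Of the called genes with separated arrays, some of the largest differences lay outside the groups above. The gene tms1 stood at 2.72 and 2.26 against 1.54 and −0.03 in the wild type, a difference of 1.73 ± 0.54 (SE). The elongin gene elc1 fell in mmi1-ts3 (−0.96 and −1.98) and stood at −0.33 and 0.19 in the wild type; its call was lost without array 2 (adjusted p = 0.0815). The uncharacterised SPOM_SPBC19C7.04C stood at 1.49 and 2.29 in the mutant and at 3.14 and 3.19 in the wild type, and SPOM_SPAC977.12 at −2.56 and −2.45 and at −1.45 and −1.60. None of these differences passed over all genes. Of the 750 tested genes that carry a systematic identifier and no name, 160 rose (21.3%, against 14.9% of all genes) and 91 fell (12.1%, against 19.6%), 119 and 51 of them at least 2-fold. With 1 mmi1-ts3 array left out 104 and 120 rose, the first being 13.9% against 7.69% of all genes, and 52 and 49 fell (6.93% and 6.53%, against 11.2% and 10.8%). These included SPOM_SPAC637.03 (5.03 and 5.58) and SPOM_SPBC24C6.09C (4.19 and 4.85), whose mutant values lay above both wild-type values (2.95 and 3.37), and, at the other end, SPOM_SPAC8E11.10 (−4.14 and −3.61).

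The 2 mmi1-ts3 arrays disagreed for a minority of genes. The gap between the 2 mmi1-ts3 arrays exceeded 2-fold in 259 genes (5.43%). For php2, which encodes a CCAAT-binding factor subunit, the values were 0.35 and 2.80 in mmi1-ts3 and 0.19 and 2.76 in the wild type. The same order held for fzo1, a gene of mitochondrial fusion (−1.68 and 1.47 in the mutant, −0.63 and 1.40 in the wild type), and for vps16, a gene of vacuolar sorting (1.24 and −1.16 in the mutant, 1.24 and 0.43 in the wild type). For SPOM_SPBPB2B2.18 the order was opposite in the strains (0.98 and −1.58 in the mutant, −0.95 and −0.32 in the wild type). None of these 4 genes was called, but php2 was called with the array number as a block (limma adjusted p = 0.00243, against 0.168 without it). Across the 4771 genes, which are not independent replicates, Pearson's r was 0.868 between the mmi1-ts3 arrays and 0.774 between the wild-type arrays, while it was 0.907 between the uncoded arrays of the strains and 0.873 between the coded ones. The uncoded pair and the coded pair were thus each correlated more closely than the arrays of a strain, though 0.873 exceeded 0.868 only narrowly. Pairs that shared neither strain nor code, mmi1-ts3 array 1 with wild-type array 2 and the reverse, gave 0.834 and 0.811. Both of these also exceeded the 0.774 of the wild-type arrays. No label groups the arrays into sets, and the part of the array number in these results was not tested beyond the fit with it as a block.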

How the data were processed

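Each deposited value is a log2 ratio between the channels of an array, as read here from the range of values: per the labels, channel 1 held 36 °C RNA and channel 2 held 25 °C RNA of the same strain. No source used here names the log base; base 10 was set aside because the highest value, 7.81, exceeds 4.82, the base-10 log of a scanner's full range, whereas a natural log cannot be told apart from log2. How the authors corrected background, normalized and filtered spots is likewise unstated in the sources used here. Channel 1 is Cy5 in the label field but Cy3 in the label protocol; without a named dye swap, any dye effect remains in each response. Labelling took 3 to 6 µg of polyA RNA. The table holds 5188 spots, of which 4933 carry 1 gene, 1 several and 254 none; 4930 matched the RefSeq table of assembly ASM294v3 by gene ID. Values were present for 5184 and 5132 spots on the mmi1-ts3 arrays and for 5183 and 5121 on the wild-type arrays. Spots of a gene were averaged, and the 4771 of 4880 named genes that had no missing value on any of the 4 arrays entered the test. The median over these genes was subtracted from each array (−0.10 and 0.07 for the wild-type, −0.00 and 0.10 for the mmi1-ts3 arrays). No probe counts or depths exist for arrays, so the precision is limited by their number.

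A mean per strain was fitted to all 4 arrays with limma 3.58.1 in R 4.3.3 (lmFit and eBayes, residual degrees of freedom 2, prior degrees of freedom 3.56), and each mean and their difference were tested two-sided with Benjamini-Hochberg adjustment. For the strain difference, with 2 arrays per strain, the smallest p of an exact permutation test is 0.333, and no permutation test was run. The code of the fit was run on simulated independent arrays, which checks the code and not its assumptions for these data. Gene lists, 41 in all with 1294 tested genes, were described by counts and medians and not tested as sets; some were built from name patterns, and a further list is not reported here. The members, lists and tests were chosen with earlier results of these data known. Named genes are the 15 highest and 15 lowest responses past the test, mmi1, the Mmi1 targets, all tested members of lists of at most 12, up to 6 called members with the largest responses of longer lists (filled to 2), the 8 largest gaps between the mmi1-ts3 arrays, and the 10 largest differences from the wild type in each direction among called, separated genes. The 16 alternatives covered centring, scaling, genes and samples in the fit, variance model, thresholds, log base, a replicate block and each array left out.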

Additional observations from a re-analysis of the deposited data

How the results depend on the processing

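The counts of 711 higher and 933 lower genes in mmi1-ts3 stayed within 1.5 times under other centring, scaling, spot rules, variance models and the mutant arrays fitted alone, where they ran from 651 to 839 and from 873 to 1046. Tested against a 1.5-fold change they were 237 and 329, and at an adjusted p under 0.01 they were 327 and 472, both stricter by construction. With 1 array left out, which leaves fewer arrays for the mean or the spread, they ran from 367 to 819 higher and from 514 to 974 lower; a lone mutant array is then assumed to vary like the wild-type arrays. The count of genes whose response differed between the strains ran from 0 to 2 with 1 array left out, the 2 without mmi1-ts3 array 2, and was 0 under every other setting run. The strain difference cannot be had with the mutant arrays alone. Array numbers are record order, and no label pairs the arrays. With the array number as a replicate block, 1011 genes rose and 1158 fell, and 0 differed between the strains; the gaps between the arrays correlated across genes between the strains at 0.379, from only 2 pairs. Of the 244 named genes called, 155 kept their call with either mmi1-ts3 array left out, 71 lost it without array 1 and 68 without array 2, and none changed sign. Of 41 list medians, 7 changed sign with a mmi1-ts3 array left out, and 2 of these also when centred over all spots. With both arrays all of these medians lay within 0.1005 of 0. The furthest from 0 with both arrays was that of glycolysis genes, which went from −0.10 to 0.0075 without array 1. The furthest from 0 after the change was that of phosphate genes, which went from −0.06 to 0.18 without array 1. The cause was not tested. Read as natural logs, every log2 value would lie further from 0, with the same calls.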

Other observations

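Of the 254 spots without a gene name, 249 had a value on both mmi1-ts3 arrays. On both arrays, 5 of them (2.01%) lay at least 2-fold higher and 8 (3.21%) at least 2-fold lower, with means from −2.48 to 2.43. Among the named, tested genes these numbers were 337 (7.06%) and 435 (9.12%). Of the 109 named genes left out of the test for a missing value, 57 had both mmi1-ts3 values, and 3 of these lay at least 2-fold higher and 2 at least 2-fold lower on both.

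Genes that rose in mmi1-ts3 had a direct genome neighbour that rose in 29.8% of 704 cases, against 25.0% of 4016 genes that did not rise. For the genes that fell, 34.1% of 926 had a neighbour that fell, against 32.6% of 3794 others. Neighbours come from the order of genes in the RefSeq annotation, and the shares were not tested. The gap between the mmi1-ts3 arrays correlated at 0.394 between spots next to each other in the deposited table, whereas the mean response correlated at 0.113; genes are not independent replicates, and whether the table follows the order of printing is unstated in the sources used here.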
